A study of Mus musculus with 12 samples.

Results

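The 5 genes described here, Mup3, Mup7, Mup11, Mup20 and Mup21, encode major urinary proteins of the mouse. They were taken by symbol from the 17007 genes listed in the deposited tissue expression values, because earlier results of these data showed them abundant in normal liver and lost in liver tumors. The levels that set them apart between normal liver and tumor therefore chose them, and are given as a description with no test. The table also lists 14 other numbered Mup symbols and 8 Mup pseudogenes, 27 Mup symbols in all.

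RNA from 12 livers or liver tumors of mice was sequenced, in 4 groups of 3 libraries. Normal livers came from wild-type C57BL/6 mice. The tumors were c-MYC/MCL1/RictorKO Tsc2KO hepatocellular carcinomas, raised in mice with floxed Rictor and Tsc2 by hydrodynamic tail vein injection of c-MYC, MCL1 and Cre plasmids, which reach only part of the hepatocytes of the host liver. Their hosts received vehicle, MLN0128 at 1 mg/kg per day or everolimus at 1 mg/kg per day by gavage. The labels give 6 days a week for 3 weeks from day 6 after injection and sacrifice at 3.7 weeks, whereas the description of the sequenced tumors in the study's own text gives 3 days of drug, so how long these tumors were treated is uncertain. All tumors thus shared the oncogenes and both deletions, and the normal livers carried neither, so that tumor state, genotype and gavage cannot be told apart in any contrast with normal liver. MLN0128 blocks the mTOR kinase in both of its complexes, and everolimus is a rapamycin analog. The paper's methods mention mice of both sexes, and the labels do not give the sex of a library.

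Major urinary proteins are small secreted lipocalins, barrel-shaped proteins that carry volatile odorants. Mouse liver makes them in large amounts and the kidney passes them into urine, where they act in scent marking and individual recognition. Their transcription in hepatocytes depends on growth hormone pulses acting through STAT5B and on androgen, glucocorticoid and thyroid hormone, and it is higher in males than in females. Mup20 encodes darcin, a male pheromone that draws females to a male's scent mark, whereas the central members of the gene cluster are near-identical copies of each other.

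The members lie on the minus strand of chromosome 4 in the GRCm38 assembly, and all are protein-coding genes in the GENCODE M21 annotation that overlap no other annotated gene. Mup7 (ENSMUSG00000073842.10) runs from 60066469 to 60070475, and Mup11 (ENSMUSG00000073834.10) from 60658466 to 60662411. Mup20 (ENSMUSG00000078672.2) follows at 62050234 to 62054158, Mup3 (ENSMUSG00000066154.11) at 62083476 to 62087342 and Mup21 (ENSMUSG00000066153.2) at 62147932 to 62150863. Mup20, Mup3 and Mup21 thus stand together within 100630 bases at one end of the cluster with no other numbered Mup gene between them, and Mup7 and Mup11 stand among the copies.

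How alike the coding sequences were bears on every value below, because reads from shared stretches can be assigned to the wrong copy. The 60-base stretch of the third exon shown here for each member (GENCODE M21 transcripts, GRCm38, minus strand) is coding sequence. Capitals mark the bases that differ from Mup11.
Mup11, chr4:60660889-60660948: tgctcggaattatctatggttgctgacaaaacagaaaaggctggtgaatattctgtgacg
Mup7, chr4:60068902-60068961: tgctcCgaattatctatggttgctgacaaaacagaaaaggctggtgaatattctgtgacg
Mup20, chr4:62052637-62052696: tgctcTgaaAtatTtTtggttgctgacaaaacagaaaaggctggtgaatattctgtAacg
Mup21, chr4:62149355-62149414: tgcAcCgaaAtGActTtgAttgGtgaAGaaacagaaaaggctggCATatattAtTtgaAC
Mup3, chr4:62085960-62086019: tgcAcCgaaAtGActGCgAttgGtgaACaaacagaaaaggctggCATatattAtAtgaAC
In this stretch Mup7 differed from Mup11 at 1 position, Mup20 at 5, Mup21 at 17 and Mup3 at 18. The stretch of Mup18, which is not a member, was the same as that of Mup7 letter for letter.

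Over the whole coding sequence, Mup7 and Mup11 shared 98.34% of aligned bases and Mup3 and Mup21 shared 94.75%. Mup3 shared 82.34% with Mup7 and 87% with Mup20, so the members form a Mup7 and Mup11 pair, a Mup3 and Mup21 pair, and Mup20 apart. The nearest copy of Mup11 was a gene outside the 5, Mup18, at 99.82%, and the nearest copy of Mup7 was Mup12 at 99.26%. No other numbered Mup gene came closer than 83.78% to Mup3 or 84.9% to Mup21.

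Windows of 75 and of 150 bases were counted along each annotated transcript, and a window was called unique if it was found in the transcripts of no other gene. For Mup3 94.56% of the 75-base windows were unique and for Mup21 89.72%, and every 150-base window of both genes was. Mup20 had 56.44% and 68.93%, the rest being shared with the pseudogene Mup-ps19. Mup7 had only 18.9% and 32.85% and Mup11 26.29% and 35.17%, with most shared windows found in Mup1 and Mup14 respectively. The values of Mup3 and Mup21 can therefore be read gene by gene, whereas those of Mup7 and Mup11 are uncertain as to the copy they came from. How the authors counted reads that match several genes is not given in the sources used here.

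**Figure D1:**
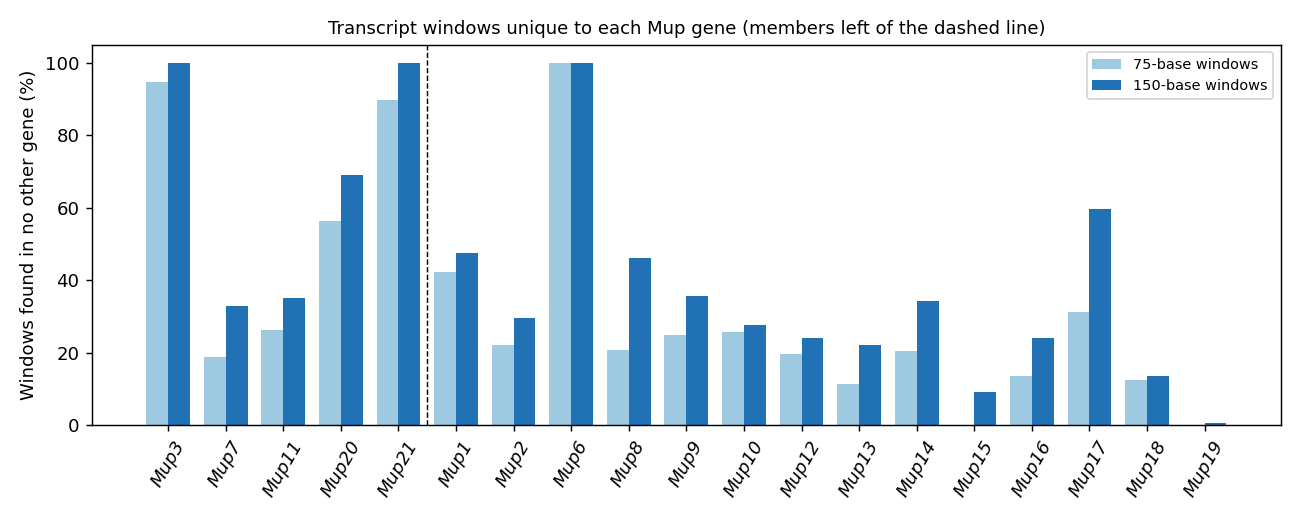
Share of 75-base (light bars) and 150-base (dark bars) transcript windows, in percent, that occur in no other gene, for the 5 members and the 14 other numbered Mup genes. Mup3 and Mup21 stand at 100% for 150-base windows, whereas Mup7 and Mup11 lie at 32.85% and 35.17%, among the other copies.

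The start sites of Mup11, Mup3 and Mup21 share a stretch that the promoter table of RefSeq (GRCm38.p6, minus strand) holds for them. Capitals mark TATATAA in each, a short run of letters like that of a TATA box, which was chosen after the promoters had been read.
Mup11, chr4:60662381-60662447: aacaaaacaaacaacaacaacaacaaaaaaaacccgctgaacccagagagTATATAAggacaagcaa
Mup3, chr4:62087312-62087378: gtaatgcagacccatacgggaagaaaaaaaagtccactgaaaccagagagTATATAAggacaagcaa
Mup21, chr4:62150833-62150899: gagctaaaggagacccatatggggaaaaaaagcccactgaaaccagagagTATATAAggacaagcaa
On either strand of the promoter windows, which hold the bases just before and after each start site, TATATAA was found in 3 of the 4 members in the table, in 9 of 9 other Mup genes there and in 3.24% of all 32851 promoters. Mup7 had no match in its window, and Mup20 is not in the table. The Mup7 window aligned with that of Mup11 over 194 positions only, so the motif may lie outside it. In Mup11, Mup3 and Mup21 the motif began 2, 11 and 8 bases before the RefSeq start. The GENCODE starts given above, 60662411, 62087342 and 62150863, lie further upstream, so by that annotation the motif falls inside each gene. Which start is used in these livers was not tested. Of the other motifs searched, TTCNNNGAA (the STAT5 motif, in 8.30% of all promoters), AGGTCA (the core of nuclear receptor elements, in 16.3%) and TATAAA (13.6%) had no match in the 4 windows. CCAAT was in Mup7 and Mup11 and in 37.4% of all promoters. The promoters of Mup3 and Mup21 were identical at 92.93% of 297 aligned positions and those of Mup7 and Mup11 at 98.45% of 194, the same pairs as in the coding sequence.

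Levels are given in FPKM as the authors deposited them, that is, as fragments relative to transcript length and library size. Total reads, recovered from FPKM and exon length, ran from 17142261 to 25157173 per library. At that depth 3 reads, taken here as the lowest countable level, stood for 0.0629 to 0.183 FPKM of Mup11 and 0.147 to 0.425 FPKM of Mup21, whose exons are the shortest. MLN0128 replicates 1 and 2 held 191 and 155 FPKM of Xist, which is transcribed from the inactive X chromosome of females, and listed Ddx3y, Eif2s3y, Kdm5d and Uty of the Y chromosome at 0. All other libraries had at most 0.0699 FPKM of Xist and expressed these genes, so that only MLN0128 mixed both kinds of library.

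Mup3, the most abundant member, reached 21200, 11600 and 20900 FPKM in the normal livers and ranked 4th, 9th and 5th among all genes. In the vehicle-treated tumors it stood at 13.1, 1.95 and 18.8 FPKM. Every tumor lay below every normal liver, and the group medians differed 1595-fold. In these bulk samples, fewer hepatocytes and less Mup RNA per hepatocyte cannot be told apart. With MLN0128, Mup3 stood at 32.6, 81.3 and 91.9 FPKM, and with everolimus at 54.1, 101 and 62.4 FPKM. From high to low, the medians stood in the order normal liver, MLN0128, everolimus and vehicle, the drug groups overlapping each other. All 6 drug-treated tumors thus exceeded all 3 vehicle-treated tumors, while the highest of them was still 115-fold below the lowest normal liver.

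Mup21, the closest relative of Mup3 among the members, was expressed at 1080, 684 and 1910 FPKM in normal liver. The vehicle group had 1.31, 0.14 and 0.951 FPKM, which rested on 19, 2 and 15 reads. The medians differed 1136-fold, with no overlap between the groups. Its levels were 1.09, 0.97 and 4.75 FPKM with MLN0128, overlapping those with vehicle. With everolimus they were 1.49, 1.32 and 2.85 FPKM, all above vehicle, although the nearest libraries of the 2 groups differed only 1.01-fold.

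Mup20, the darcin gene, varied more than Mup3 and Mup21 within normal liver, at 3350, 206 and 1210 FPKM. Its levels of 24.2, 3.22 and 30.5 FPKM with vehicle made it the most abundant member in all 3 vehicle-treated tumors. The medians of 1210 and 24.2 FPKM gave the smallest fold difference among the 4 members with reads in that group. MLN0128-treated tumors had 1.97, 41.9 and 53.6 FPKM and everolimus-treated tumors 12.4, 101 and 53.4 FPKM. Both drug groups overlapped vehicle, and MLN0128 replicate 1 was lower than any other library of the study.

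Mup7 was expressed at 3800, 529 and 1470 FPKM in normal liver. In vehicle-treated tumors it was near the limit of detection, with 1, 0 and 5 reads (0.0452, 0 and 0.208 FPKM). Everolimus-treated tumors held 7, 17 and 56 reads (0.359, 0.544 and 2.18 FPKM), all above vehicle. With MLN0128 the values were split, at 0.0341 and 0 FPKM in replicates 1 and 2 and 11.2 FPKM, or 277 reads, in replicate 3. The same library was the highest of its group for all 5 members (31.4% of all tested genes were highest there), and it is the MLN0128 library without Xist. In the everolimus group, where no library bore Xist, replicate 3 was highest for 3 of 5 members, Mup7 among them (32.2% of all tested genes). Any link of these orders to Xist was not tested.

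Mup11 went against its label of a gene abundant in normal liver. It reached 398 FPKM in normal liver replicate 1, but only 3.39 and 8.57 FPKM in replicates 2 and 3, ranking 220th, 7654th and 4677th among all genes. No read was assigned to it in any vehicle-treated tumor. Set against the floor of 3 reads per library, the lowest normal liver was at least 37.5-fold higher and the median normal liver at least 94.8-fold higher. With MLN0128 it had 0, 1 and 52 reads, and with everolimus 0, 0 and 13 reads, so its detection in tumors rested on replicate 3 of each drug group. Mup7 and Mup11, which share most of their sequence, had a Pearson r of 0.976 of log2 FPKM over the 9 tumor libraries. It rests on replicate 3 of each drug group, since Mup11 had at most 1 read in every other tumor. These points share library, depth and reads of uncertain assignment, and the coefficient is a description.

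**Figure D2:**
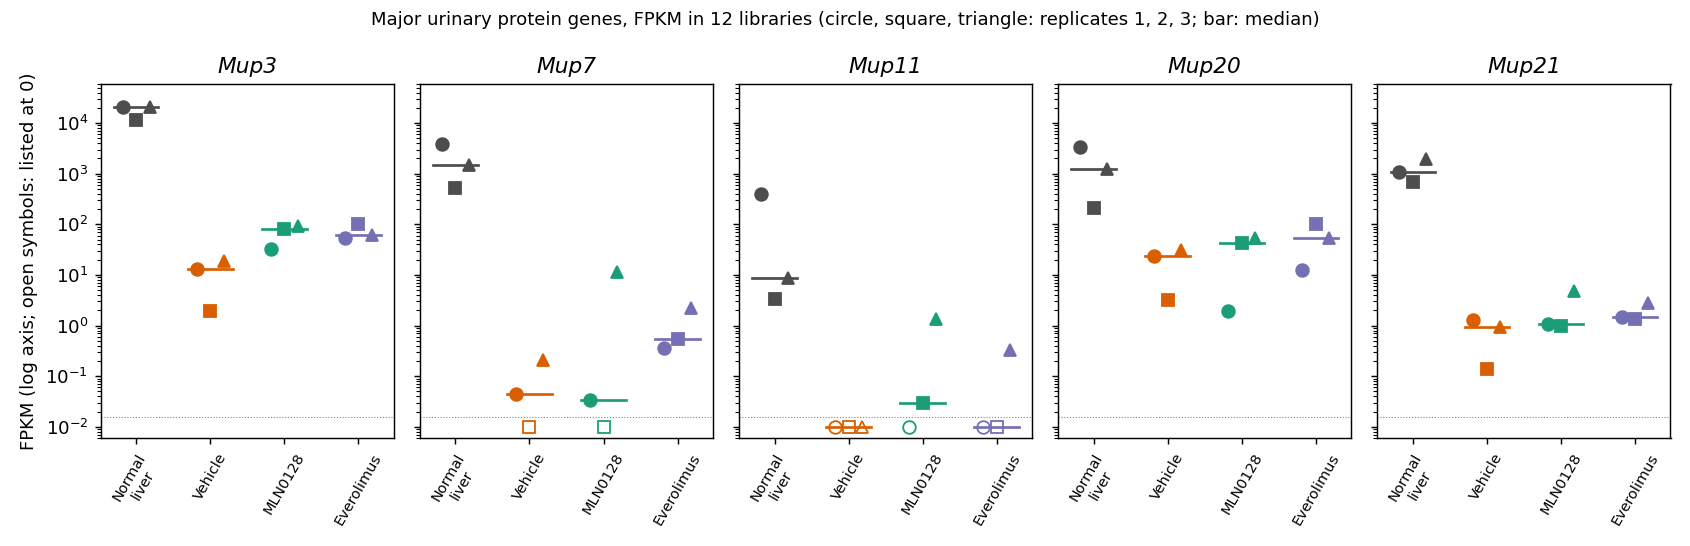
FPKM (log axis) of the 5 members in each of the 12 libraries, with replicates 1, 2 and 3 as circle, square and triangle, the group median as a bar and open symbols for libraries listed at 0. All tumor libraries lie below all normal livers for each member, Mup3 is higher in the 6 drug-treated tumors than with vehicle, and Mup11 is high in 1 normal liver only.

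On the log2(FPKM + 1) scale, which understates the change of genes near 0, the means of vehicle-treated tumors and normal livers differed by -10.85 for Mup3, -10.38 for Mup7, -9.35 for Mup21, -5.98 for Mup20 and -4.68 for Mup11. Against normal liver, the differences with MLN0128 ran from -9.27 (Mup7) to -4.25 (Mup11), and with everolimus from -9.58 (Mup7) to -4.49 (Mup20). Among all 14397 tested genes, 35.1% lay wholly below normal liver with vehicle, 36.3% with MLN0128 and 35.4% with everolimus, and nothing is read from the 5 of 5 members that did so in each contrast, since the members were chosen for it. All 5 passed the filter on low values, at least 0.5 FPKM in at least 3 libraries, and Mup11 did so only through the normal livers.

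The 5 genes together made up 3.83%, 1.70% and 3.28% of the summed FPKM of the normal livers. In vehicle-treated tumors their share was 0.0111%, 0.00153% and 0.0159%. MLN0128-treated tumors had 0.0129%, 0.0375% and 0.0644%, and everolimus-treated tumors 0.0185%, 0.0700% and 0.0333%. All drug-treated tumors but MLN0128 replicate 1 thus lay above the vehicle range, and all stayed far below normal liver.

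The makeup of this pool differed between the groups as well. Mup3 supplied 71.1% to 89.1% of the members' FPKM in normal liver, but 33.9% to 37.3% in vehicle-treated tumors, where Mup20 supplied 60.4% to 62.6%. The ratio of Mup20 to Mup3, which does not depend on the scaling between libraries, was 0.158, 0.0178 and 0.0579 in normal liver and 1.85, 1.65 and 1.62 with vehicle. It was lower than that in both drug groups, at 0.0604, 0.515 and 0.583 with MLN0128 and 0.229, 1.00 and 0.856 with everolimus. All 3 vehicle-treated tumors had ratios above those of all other libraries, and on a log scale they lay closer to each other than those of any other group.

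This ratio was picked after its values were seen, so its differences are a description with no test. The mean log2 ratio differed from vehicle by -2.70 with MLN0128 and by -1.55 with everolimus, and MLN0128 differed from everolimus by -1.14.

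**Figure D3:**
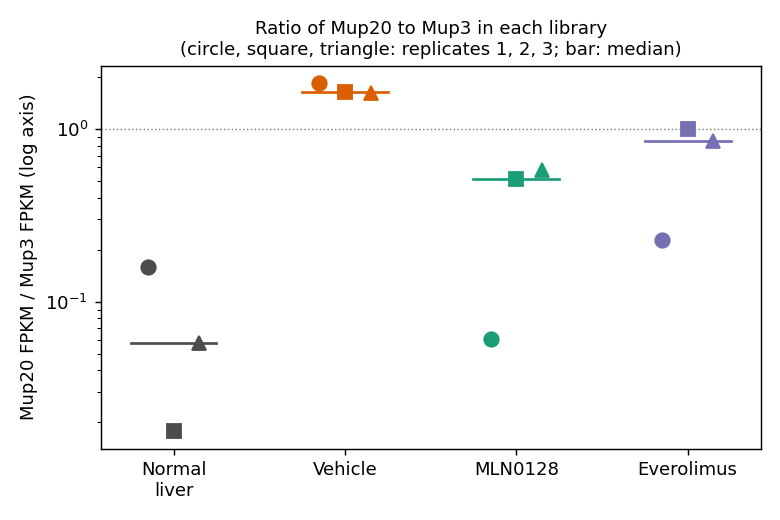
Ratio of Mup20 to Mup3 FPKM (log axis) in each library, with replicates as circle, square and triangle and the group median as a bar. Vehicle-treated tumors cluster at 1.62 to 1.85, above every normal liver (0.0178 to 0.158) and every drug-treated tumor (0.0604 to 1.00).

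Whether either mTOR inhibitor changed the members was asked with limma on all tested genes. The choice of members used low levels in tumors, so these contrasts are not fully independent of it. By limma's treat test, which asks for more than a 1.5-fold change, 0 of 5 members passed a Benjamini-Hochberg adjusted p of 0.05 with MLN0128 against vehicle, where 0.479% of all tested genes were called higher and 1.65% lower. These shares stand for 69 and 237 genes, and when each library was scaled by its plain read total the counts were 196 and 188. The result with everolimus was 0 of 5 as well, beside 0.0347% of all tested genes called higher and 0.57% lower. In each contrast 1 member had an unadjusted p under 0.05, and it was Mup3 both times. Mup11 was at 0 and Mup7 at most at 5 reads with vehicle, and the spread of the normal livers entered their standard errors, so that their failing the test says nothing about the drugs.

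Mup3 was higher with MLN0128 by a log2 fold change of 2.76 (SE 0.621, 95% confidence interval 1.40 to 4.12), with a treat adjusted p of 0.0830 (limma). By limma's moderated test for any change its adjusted p was 0.00627, and with a fold change above 1.5 required this rule called 8.09% of all tested genes higher. With everolimus the log2 fold change was 2.92 (SE 0.621, 95% confidence interval 1.56 to 4.28), the treat adjusted p 0.154 and the moderated adjusted p 0.0142 (limma), where the rule called 2.03% of genes higher. Mup3 thus passed the moderated test with both drugs and the stricter treat test with neither. When each library of the 2 groups compared was left out in turn, the moderated call of Mup3 held in 6 of 6 cases with MLN0128 (limma adjusted p 0.00585 to 0.0213) and 6 of 6 with everolimus (0.0187 to 0.0414). The 2 contrasts share the vehicle libraries, and without vehicle replicate 2, the lowest, the log2 fold changes were 1.93 and 2.09.

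Library by library, all 6 drug-treated tumors exceeded all 3 vehicle-treated tumors in Mup3, a pattern found in 10.8% of all tested genes. The nearest libraries were 1.73-fold apart with MLN0128 and 2.88-fold with everolimus. Without MLN0128 replicates 1 and 2, the libraries with Xist, the log2 fold change of Mup3 was 3.31, resting on the 1 MLN0128 library left. That of Mup7 was 3.50, from the same library and against a vehicle level near the limit of detection. Whether the Xist-bearing libraries shaped the result in the full group was not tested.

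The other 4 members had positive estimates with both drugs in the full groups. With MLN0128 against vehicle the log2 fold change was 0.73 for Mup21 (95% confidence interval -0.26 to 1.73) and 0.35 for Mup20 (-2.47 to 3.17). Everolimus gave 1.49 for Mup20 (-1.33 to 4.31) and 0.70 for Mup21 (-0.29 to 1.70). Each of these intervals spans 0, so for Mup20 and Mup21 neither an increase nor its absence was shown. For Mup7 and Mup11, which cannot fall from a vehicle level near 0, only the estimates are given: 1.11 and 0.43 with MLN0128 and 0.80 and 0.14 with everolimus. All 3 libraries were above all of vehicle in 1 of 5 members with MLN0128 (22.1% of tested genes) and in 3 of 5 with everolimus (Mup3, Mup7 and Mup21; 17.6% of tested genes). In Mup21 these groups were 1.01-fold apart, and Mup7 rested on few reads.

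Single libraries moved these estimates. With MLN0128, leaving out replicate 3 of that group gave -0.09 for Mup7, 0.02 for Mup11 and 0.23 for Mup21. Leaving out vehicle replicate 2 gave 0.44 for Mup21. The estimate of Mup20 turned to -0.23 and -0.41 without MLN0128 replicates 2 and 3 and to -0.56 without vehicle replicate 2, and it was 1.69 without MLN0128 replicate 1. With everolimus, Mup20 stood at 0.58 without vehicle replicate 2, 0.85 without everolimus replicate 2 and 2.32 without everolimus replicate 1. Mup21 stood at 0.41 without vehicle replicate 2, and without everolimus replicate 3 Mup7 stood at 0.42 and Mup11 at 0.

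MLN0128 and everolimus, the compounds that act on the kinase itself and on mTOR complex 1, were given at the same dose. Between them 0 of 5 members passed the treat test or the moderated test, and 0 had an unadjusted p under 0.05 (limma; treat called 0.0417% of all tested genes and the moderated test with the fold rule 5.3%). The log2 difference, MLN0128 minus everolimus, was -0.16 for Mup3 (95% confidence interval -1.52 to 1.20) and 0.03 for Mup21 (-0.97 to 1.03). It was -1.14 for Mup20 (-3.96 to 1.68), and the estimates were 0.31 for Mup7 and 0.29 for Mup11. With single libraries left out, the estimates of all 5 members fell on both sides of 0. The interval of Mup21 came close to a 2-fold difference either way and those of Mup3 and Mup20 were wider, and the libraries of the 2 groups overlapped for all 5 members.

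**Figure D4:**
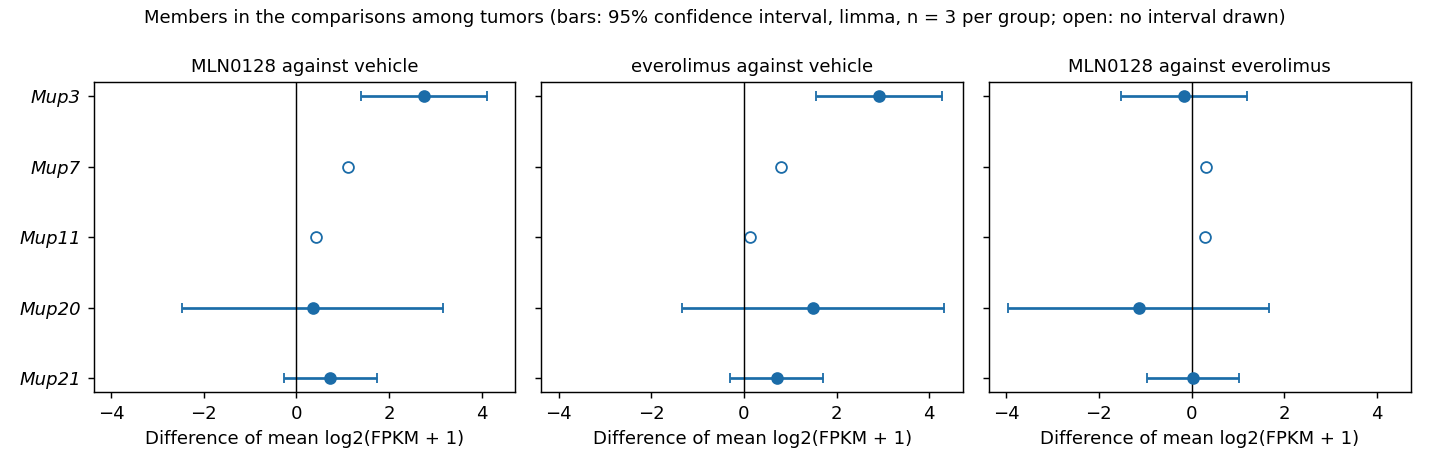
Difference of mean log2(FPKM + 1) for each member in the 3 comparisons among tumors, with 95% confidence intervals from limma (n = 3 per group) for Mup3, Mup20 and Mup21 and open points without intervals for Mup7 and Mup11. The intervals of Mup3 lie above 0 with MLN0128 (2.76) and everolimus (2.92), and all other intervals drawn include 0.

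Normal livers differed among themselves more than a single label would convey. All 5 members were lowest in normal liver replicate 2, where 32.6% of tested genes were lowest, and 4 of 5 were highest in replicate 1 (31.4% of tested genes), with Mup21 highest in replicate 3. Among the 14 other numbered Mup genes, 10 were lowest in replicate 2. Mup15 stood at 2300, 1.67 and 1.86 FPKM, Mup14 at 393, 1.77 and 4.51 FPKM and Mup17 at 714, 43.8 and 287 FPKM. These genes share with Mup11 a high level in replicate 1, and they also share sequence with it, so which copy the reads came from is uncertain. Mup1, Mup2, Mup10 and Mup12 followed no such course, with the lowest value in replicate 1 and at most 2.07-fold between replicates.

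Genes known to be expressed more in male than in female liver were examined beside the members. Of 13 male-biased genes 8 were lowest in normal liver replicate 2, among them Selenbp2, a selenium-binding protein gene, at 1560, 39.5 and 718 FPKM and the complement gene C4a at 16.7, 2.5 and 9.28 FPKM. Of the 7 female-biased genes above 0.5 FPKM in a normal liver, 5 were highest there (36.9% of tested genes were), including the cytochrome P450 gene Cyp2a4 at 729, 1030 and 809 FPKM. The library nevertheless had no more Xist than its neighbours (0.0202 FPKM) and expressed the Y-linked Ddx3y at 40.6 FPKM. The part of these differences in the members' levels was not tested.

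In tumors, the other 14 numbered Mup genes were nearly silent. Each was below normal liver in every tumor group, 9 were at 0 in all vehicle-treated tumors, and the highest values were 0.14 FPKM with vehicle, 1.08 FPKM with MLN0128 and 0.434 FPKM with everolimus. The highest MLN0128 and everolimus values were both those of Mup15, in replicate 3 of each group, where 24 and 10 reads were assigned to it. At these levels the drug contrasts could not show a change in them, and no test of them is given. The members Mup3, Mup20 and Mup21, at the far end of the cluster, were thus the only numbered Mup genes above 0.1 FPKM in all 9 tumors, Mup21 on 2 reads in vehicle replicate 2.

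**Figure D5:**
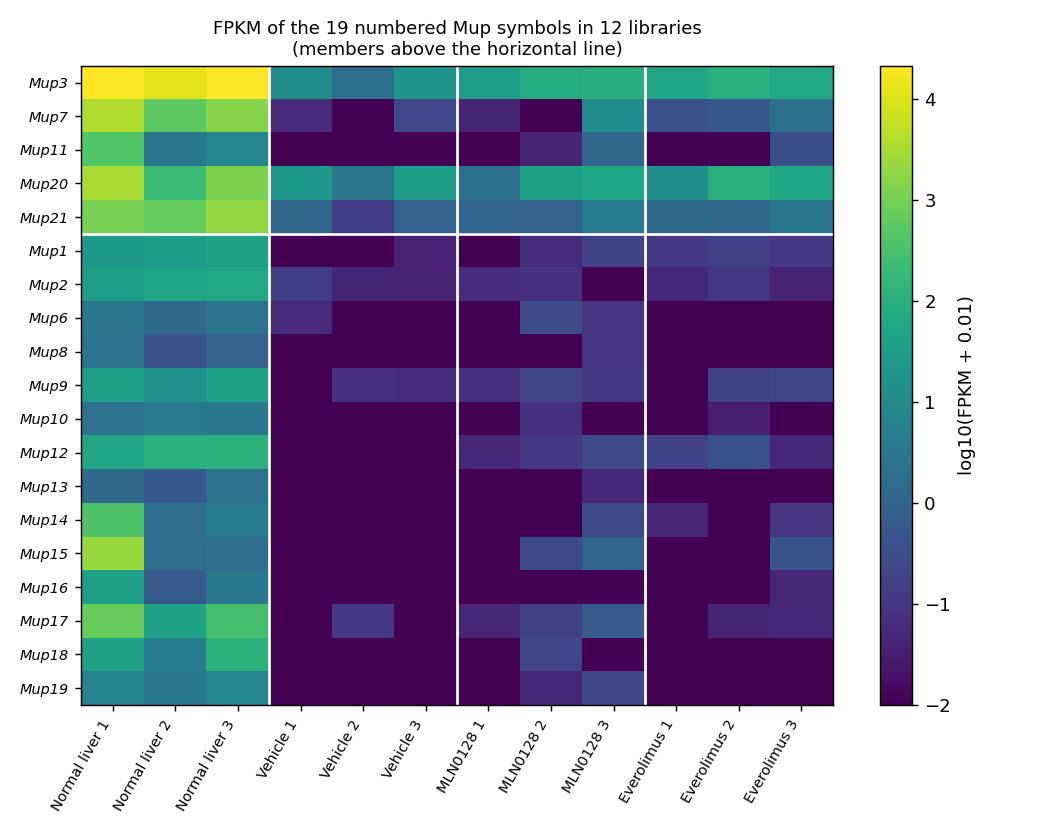
Color scale of log10(FPKM + 0.01) for the 19 numbered Mup symbols (rows, members on top) in the 12 libraries (columns, grouped by normal liver, vehicle, MLN0128 and everolimus). Mup3, Mup20 and Mup21 stay above 0.1 FPKM in all tumors, whereas Mup11, Mup14, Mup15 and Mup16 are bright in normal liver replicate 1 only.

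Of 18 tested genes of growth hormone signalling and nuclear regulation, 12 were lower and 0 higher with vehicle than in normal liver by limma's treat test, with a median difference of -1.44 on the log2 scale (0.06 over all tested genes, of which 16.9% were called lower and 15.9% higher). Ghr, the growth hormone receptor, fell from 120 to 135 FPKM to 7.24 to 11.3 FPKM (log2 fold change -3.59, limma treat adjusted p 2.93e-07). Igf1, a target of growth hormone in liver, fell by 5.81 on the log2 scale, and Cebpa, a hepatocyte transcription factor, by 2.99. Stat5b, the transducer of growth hormone pulses, was at 10.6 to 12.9 FPKM in normal liver and 13.5 to 19.6 FPKM with vehicle and did not pass (log2 fold change 0.44, limma treat adjusted p 1).

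With the drugs, 0 of these 18 passed the treat test in either contrast. By the moderated test and a 1.5-fold minimum, MLN0128 raised Cebpa (log2 fold change 0.80) and Stat5b (0.66) and lowered Cebpb (-1.03), and everolimus changed 0. This rule called 8.09% of all tested genes higher and 11.2% lower with MLN0128, and 2.03% and 4.69% with everolimus. With MLN0128, Cebpa stood at 82.9, 126 and 51.9 FPKM and Stat5b at 30.7, 32.9 and 18.2 FPKM, both highest in the Xist-bearing replicates 1 and 2. In replicate 3, Stat5b lay within the vehicle range of 13.5 to 19.6 FPKM. Cebpa was just above its own vehicle range of 40.9 to 50.5 FPKM there. Ghr differed from vehicle by 0.03 with MLN0128 and -0.15 with everolimus, neither passing a test.

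Vehicle-treated tumors had lower levels than normal liver of 13 of the 13 male-biased genes by limma's treat test (median log2 fold change -5.48). That test called 16.9% of all tested genes lower and 15.9% higher. Hsd3b5, a steroid-metabolizing enzyme, went from 438 to 658 FPKM to 0 in all 3 vehicle-treated tumors, and Cyp7b1, an oxysterol hydroxylase, from 216 to 494 FPKM to 0.679 to 2.42 FPKM. With MLN0128 and everolimus 0 passed treat, and their median log2 fold changes were 0.03 and 0.31. By the moderated test and fold rule, MLN0128 raised 1 of 13, Serpina1e (0.90), and lowered 1, Gstp1 (-0.75), and everolimus changed 0. With MLN0128 this rule called 8.09% of all tested genes higher and 11.2% lower, so nothing is read from 1 gene each way. Of 11 tested female-biased genes, 2 were higher and 3 lower with vehicle than in normal liver by treat, beside 15.9% and 16.9% of all tested genes. MLN0128 changed 2 by the moderated test and fold rule (Cux2 0.99, Prom1 -0.67), again 1 each way, and everolimus changed 0. Cux2, a transcription factor of female liver, stood at 2.44 and 1.83 FPKM in the Xist-bearing MLN0128 replicates 1 and 2, at 0.601 FPKM in replicate 3 and at 0.204 to 0.372 FPKM with vehicle. Without those 2 libraries, which leaves 1 MLN0128 library, the log2 fold change was 0.35 for Cux2 and -0.66 for Prom1. It was -2.58 for Sult2a1, -0.84 for Cyp3a16 and -0.90 for Cyp3a44, each resting on that library.

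Of 9 tested lipocalin relatives of the Mup family, 4 were lower with vehicle than in normal liver by treat (16.9% of all tested genes). Among them was Rbp4, the plasma carrier of retinol, which fell by 2.65 on the log2 scale. Apom, a lipocalin of high-density lipoprotein, was the only relative that passed a drug contrast, falling by 1.35 with MLN0128 (limma treat adjusted p 0.00888) from 214 to 251 FPKM to 79.6 to 100 FPKM. Mup3 and Apom thus moved in opposite directions with this drug, by the moderated test in both cases.

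Hepatocyte markers moved with the members between normal liver and tumor. Of 9 tested, 7 were lower with vehicle by treat, which called 16.9% of all tested genes lower. All 9 were lower by the moderated test and fold rule, which called 25.8% of all tested genes lower. Their median log2 fold change was -5.50, and none of the 9 was at 0 in any library. Their summed level was 85257 to 105095 FPKM in normal liver, 4338 to 6598 FPKM with vehicle, 2017 to 4687 FPKM with MLN0128 and 3674 to 8550 FPKM with everolimus. The summed level with MLN0128 thus did not rise with Mup3, though Cyp2e1, a cytochrome P450 of hepatocytes, did. It stood at 10.2, 1.56 and 28.6 FPKM in the vehicle group, 87.4, 74.6 and 44.3 FPKM under MLN0128 and 75.3, 118 and 51.5 FPKM under everolimus. Its log2 fold changes of 2.83 and 3.04 (limma moderated adjusted p 0.00832 and 0.0170, treat 0.0997 and 0.173) were close in size to those of Mup3. Cyp2e1 was lowest in vehicle replicate 2 and highest in replicate 3, the order of Mup3, and the ordering was not tested.

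By the moderated test MLN0128 also raised Cyp3a11 and Serpina1c and lowered Ttr, Ass1 and Apoa1, 3 markers each way, and everolimus raised Cyp2e1 and lowered Ttr. Among markers of other cells, by the moderated test and fold rule, MLN0128 lowered 1 of 6 macrophage markers (Cd68) and 3 of 4 biliary markers (Krt19, Sox9 and Epcam). It raised 1 of 6 stellate cell markers (Des) and changed 0 of 6 endothelial and 0 of 2 lymphocyte markers. Over all tested genes the rule called 11.2% lower and 8.09% higher with MLN0128, and 4.69% lower and 2.03% higher with everolimus. Everolimus lowered the same macrophage marker and the same 3 biliary markers and changed 0 of the others. Krt19, a keratin of bile duct cells, fell by 4.05 with MLN0128 and 4.04 with everolimus on the log2 scale. Biliary markers summed to 36.8 to 92.5 FPKM with vehicle, 10.2 to 28.1 FPKM with MLN0128 and 17.2 to 61.8 FPKM with everolimus, and macrophage markers to 39.3 to 63.2, 15.6 to 25.6 and 24.6 to 80.6 FPKM. Their part in the rise of Mup3 was not tested.

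The genes whose levels followed the summed FPKM of the 5 members most closely over all 12 libraries were Nat8f2, Marveld1, Zfp385b, Akr1c6 and Mbl1, with Pearson r of 0.983 to 0.992 of log2 FPKM. Such values were common, with 1507 of 14371 genes above 0.9, because normal livers and tumors stand far apart, and the sum is mostly Mup3 in normal liver. Within the 9 tumors the 5 closest were Nat8f2 (r = 0.935), Lin37 (0.920), Marveld1 (0.914), Fam151b and Dusp23 (0.892). Nat8f2, an acetyltransferase-family gene, stood at 3.59 to 11.3 FPKM with vehicle, 10.9 to 21.5 FPKM with MLN0128 and 13.9 to 35.1 FPKM with everolimus. These coefficients are descriptions over libraries that share depth and scaling. Between the members themselves in tumors, Pearson r of log2 FPKM was 0.888 for Mup7 and Mup21, 0.703 for Mup3 and Mup21, 0.653 for Mup3 and Mup20 and 0.471 for Mup3 and Mup7.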

How the data were processed

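Bulk RNA-seq libraries of 12 mouse livers or liver tumors were made and sequenced for the authors by Novogene. The authors counted reads per Ensembl gene, converted genes to Entrez identifiers with org.Mm.eg.db symbols, and deposited FPKM, which are not counts. The submitters' processing notes name GRCm38 and FastQC 0.11.7. The aligner, the counter and the treatment of reads matching several genes are not given in the sources used here. The authors tested with edgeR's glmTreat.

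Here, log2(FPKM + 1) of the 14397 genes that reached 0.5 FPKM in 3 or more libraries was fitted in 1 model with limma 3.58.1 (R 4.3.3), with treat against a 1.5-fold change, and p-values were adjusted over all tested genes. The code was tested on simulated data. FPKM times GENCODE M21 exon length gave whole reads within 0.1 for 98.2% to 98.8% of values under 20 reads, where chance gives 20.0%. The authors' scaling, which enters each FPKM value, set the effective library size at 0.585 to 0.596 of total reads for normal livers and 1.10 to 1.37 for tumors. Intervals and floors of 3 reads cover counting or replicate error only. The labels number the replicates and do not state whether they are separate mice, which the tests assume.

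The members, the gene lists and the tests were chosen with earlier results of these data known. The rule for named genes was every member in every library, every numbered Mup symbol, and up to 4 genes per list that were called or had the largest change. The lists were lipocalin relatives, male-biased and female-biased liver genes, growth hormone and nuclear regulators, and markers of hepatocytes, macrophages, endothelial cells, lymphocytes, stellate cells and biliary cells. A withheld gene was left out of the lists and is not reported here. Contrasts with normal liver were not tested for members. Alignment used Biopython 1.88, tables pandas 2.3.3 and figures matplotlib 3.10.9.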

Additional observations from a re-analysis of the deposited data

How the results depend on the processing

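With the 1.5-fold treat test, 0 of 5 members were called in each drug contrast under every alternative that kept that test, on FPKM: pseudocounts, filters, scalings, prior variance, samples in the fit and each library left out in turn (0 to 0 in all 3 comparisons). The count was 1, Mup3, for MLN0128 against vehicle under the moderated test with and without a fold change of 1.5 and under voom on the recovered reads (treat adjusted p 0.0367), and 1, Mup3, for everolimus against vehicle under both moderated tests. Voom on the recovered reads gave 0 for everolimus (treat adjusted p 0.0723), and it, the fit on tumor libraries alone and the moderated tests with libraries left out were chosen after seeing the data. Over all alternatives the log2 fold change of Mup3 ran from 1.93 to 3.31 with MLN0128 and from 2.09 to 3.46 with everolimus. Its limma moderated adjusted p was as low as 0.00585 with MLN0128 and 0.0142 with everolimus. Its limma treat adjusted p, from a different test, reached 0.303 and 0.471. Plain library totals moved the median of all genes by 0.11 with MLN0128 against vehicle and by 0.54 to 0.67 against normal liver, and turned no direction of Mup3 against vehicle. Without normal liver replicate 1 the difference of Mup11 between vehicle and normal liver was -2.70 in place of -4.68. With the replicate number as a block 0 members were called and the treat adjusted p of Mup3 was 0.103 and 0.199 (limma). The numbers did not pair the libraries: deviations of the 18 same-numbered pairs correlated at -0.289 to 0.148, and 1 of 12 libraries correlated best with its own number. Mup11 had under 3 reads in every tumor library but replicate 3 of each drug group, although its floor of 3 reads was the lowest in FPKM among the members.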
